A study of Macaca fascicularis with 6 samples.

Results

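Regulatory T cells (Tregs) of the cynomolgus monkey lung were selected on FOXP3 transcripts in single-cell RNA sequencing data. A Treg was a quality-controlled cell with UMIs of at least 2 of the T cell genes CD3D, CD3E, CD3G and TRAC, at least 1 FOXP3 UMI, and no UMI of CD8A, MKI67, TOP2A, MS4A1, C1QA or CSF3R. A UMI is a molecular tag that counts 1 captured transcript. The rule found 56 Tregs among 25388 quality-controlled cells, or 0.221% of them. The 3042 cells that met every term of the rule except FOXP3, at 0 UMIs, served as the reference and are called FOXP3-negative T cells. Tregs were 1.81% of the 3098 cells of both kinds (exact 95% confidence interval 1.37 to 2.34%). Intervals on shares and ratios cover counting error only.

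The lungs came from 6 male monkeys (Macaca fascicularis) of 3 to 5 years, each giving 1 droplet library of 3' ends. The 3 control monkeys (replicates 1, 2 and 3, disease label normal) received saline. The 3 asthma monkeys (replicates 8, 10 and 11) were sensitized under the skin with antigen of the roundworm Ascaris suum at 1 mg/mL in weeks 1, 3 and 5 and challenged through the nose at 10 mg/mL in weeks 6, 8, 10 and 11. Before the experiment the monkeys had shown little or no skin reaction to the antigen. Whole libraries held between 29014556 UMIs (asthma replicate 11) and 41489879 UMIs (asthma replicate 10). The libraries contributed 10, 11 and 7 control Tregs and 5, 13 and 10 asthma Tregs, with 46915, 50387, 27215, 17094, 52870 and 36948 UMIs in these cells in the same order. Asthma replicate 8 therefore described Tregs with the fewest UMIs. Libraries, 1 per monkey, were the replicates of every test except a Wilcoxon test across cells, given only as an alternative.

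Tregs are CD4+ T cells that hold back other immune cells, and the transcription factor FOXP3 keeps their program in place. They take up interleukin-2 through a receptor that includes IL2RA, carry inhibitory receptors such as CTLA4, and respond through costimulatory receptors of the TNF receptor family. In barrier tissues such as the lung, part of the Tregs carries IL1RL1, the receptor for the epithelial alarm signal interleukin-33, and Tregs are studied in asthma because they restrain responses to inhaled allergens.

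FOXP3 chose the cells, so its counts are a description only. The 56 Tregs held 89 FOXP3 UMIs: 36 cells had 1 UMI, 13 had 2, 7 had at least 3, and the highest count was 6. The median depth was 3978.5 UMIs in Tregs, with a range of 1261 to 15801, and 3534.5 UMIs in FOXP3-negative T cells. Free RNA can place single FOXP3 UMIs in other cells. A FOXP3 UMI was found in 0.502% of 14340 cells without any CD3 gene, at a median of 5476 UMIs, and in 1.07% of C1QA-positive cells, at a median of 15797 UMIs. Among the T cells of the rule the share was 1.81%, at a median of 3545 UMIs, above both pooled shares. In single libraries C1QA-positive cells had the larger share in control replicate 2 (3.17% and 2.32%) and asthma replicate 8 (5 of 500 cells and 0.746%), while FOXP3 per 1000000 UMIs was 1.43 and 6.95 in the first and 0.533 and 2.36 in the second. How many Tregs with 1 FOXP3 UMI belong to this background was not tested. Of 102 cells with at least 2 CD3 genes and a FOXP3 UMI, 30 had CD8A, 10 had MKI67 or TOP2A, 11 had C1QA, 12 had CSF3R and none had MS4A1, and these were outside the rule.

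The Treg label was checked against CTLA4, an inhibitory receptor that competes with CD28, IL2RA, the alpha chain of the interleukin-2 receptor, and IKZF2, the transcription factor Helios. At least 1 of the 3 genes was detected in 41 of 56 Tregs (73.2%) and in 15.2% of FOXP3-negative T cells, and at least 2 were detected in 30.4% and 0.822%. CD4 was detected in 55.4% and 20.9% of the cells. By these markers the label held for most cells, while 15 of 56 Tregs had none of the 3 genes. Just inside the threshold, at 1 FOXP3 UMI, CTLA4 was detected in 38.9%, IL2RA in 36.1% and IKZF2 in 19.4% of 36 cells. At 2 or more FOXP3 UMIs, the shares were 70.0%, 40.0% and 35.0% of 20 cells. Just outside it, at 0 FOXP3 UMIs, they were 5.56%, 2.60% and 7.89%. Each barcode was also compared across libraries: 137 barcodes occurred in more than 1 library, and no Treg carried one of them.

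**Figure D1:**
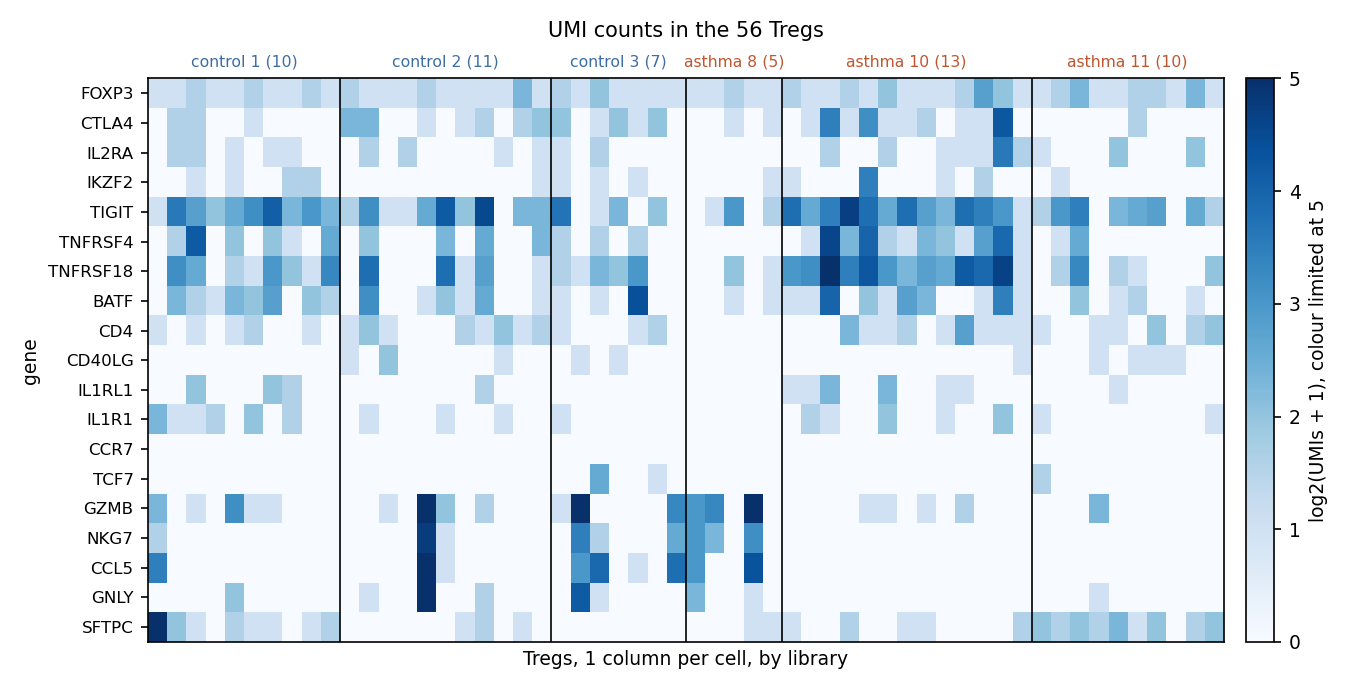
UMI counts of selected genes (rows) in each of the 56 Tregs (columns), grouped by library and coloured by log2(UMIs + 1) up to a limit of 5. TIGIT filled 48 of 56 columns, while NKG7 and CCL5 filled 9 each, none of them in asthma replicates 10 and 11.

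The share of Tregs among the T cells of the rule answered whether asthma changed their abundance. In controls 1, 2 and 3, Tregs were 1.84%, 2.32% and 1.78% of these cells. In asthma 8, 10 and 11, they were 0.746%, 2.36% and 2.15%. Asthma replicate 8 was the lowest of the 6 libraries and asthma replicate 10 the highest, so the groups overlapped. The means were 1.98% ± 0.294 in controls and 1.75% ± 0.878 in asthma (SD, n = 3 each), a difference of -0.227 percentage points (two-sided exact permutation p = 0.9, where 3 against 3 libraries cannot go below 0.1). Of all quality-controlled cells, Tregs were 0.236% ± 0.0716 in controls and 0.209% ± 0.0826 in asthma (SD, n = 3 each; exact permutation p = 0.7). A difference in Treg share was not detectable at this number of cells, and its sign turned to 0.276 points without asthma replicate 8.

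**Figure D2:**
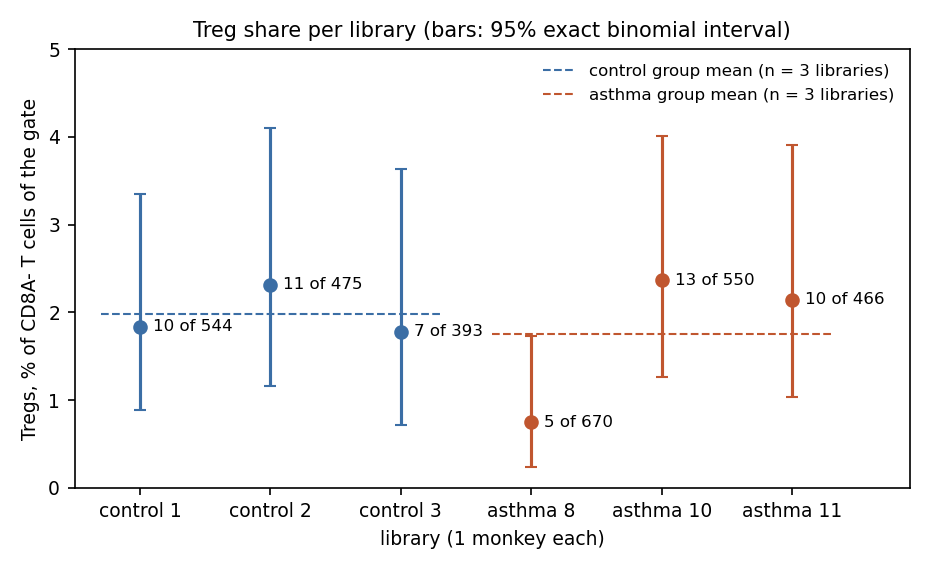
Tregs as a percent of CD8A- T cells that met the rule, per library, with exact 95% confidence intervals for counting error. The asthma libraries span 0.746% to 2.36% and enclose all 3 control libraries.

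Tregs were next compared with FOXP3-negative T cells within libraries, to see which other genes set them apart. UMIs were summed per library and cell kind in the 4 libraries with at least 10 Tregs (control replicates 1 and 2, asthma replicates 10 and 11, 44 Tregs), and edgeR's quasi-likelihood test was fitted to 6475 genes with the library as a block. Genes were called where the p adjusted by Benjamini-Hochberg was under 0.05 and the log2 fold change exceeded 0.25 in size. Of the genes tested, 73 (1.13%) were called higher and 126 (1.95%) lower in Tregs, together 3.07%, and 765 (11.8%) had an unadjusted p under 0.05. Tregs were above their reference in all 4 libraries for 275 genes (4.25%) and below it for 1121 (17.3%). Summed Tregs held 36948 to 52870 UMIs per library, against 1698070 to 2251905 in the reference. A gene of low level can thus lie below its reference by having no Treg UMI. Against FOXP3-negative cells of matched depth, 12 of 948 genes tested were called higher and 12 lower, at a median log2 fold change of 0.0052. The split of calls depended on the method, since 36.7% of edgeR's calls and 73.1% of DESeq2's 67 calls were higher in Tregs. The SE and p of a gene rest on a spread that edgeR estimated from all genes of like abundance together, with infinite prior degrees of freedom, so that a gene whose own libraries differ widely can still have a small p. With robust estimation, an alternative added after the data were seen that lets genes of unusual spread keep their own, 66 genes were called higher and 131 lower, and 10 named genes lost their call, each of them given below. The median log2 fold change of all genes was -0.23 with edgeR and -0.14 with DESeq2, and the values below are to be read against that shift. A summed level does not tell a larger number of positive cells apart from more UMIs per cell. The share of cells with a UMI is therefore given for some of the genes. Levels are given as CPM, the UMIs of a gene per 1000000 UMIs of the summed cells.

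The other 3 Treg marker genes were all called higher, at a median log2 fold change of 3.51. CTLA4 reached 107, 337 and 404 CPM in Tregs of control replicates 1, 2 and 3 and 117, 832 and 54.1 CPM in asthma replicates 8, 10 and 11. In FOXP3-negative T cells of the same libraries it lay between 13.8 and 37.9 CPM, below the Tregs of its own library in each of the 6. The log2 fold change was 3.51 ± 0.39 (SE, edgeR adjusted p = 2.33e-16), and CTLA4 was detected in 50.0% of Tregs. IL2RA was measured at 149, 119 and 110 CPM in control Tregs, at 0, 378 and 190 CPM in asthma Tregs, and at 3.55 to 14.3 CPM in FOXP3-negative T cells. Apart from asthma replicate 8, where no Treg had an IL2RA UMI, Tregs were above the reference in every library (log2 fold change 4.19 ± 0.51, SE, edgeR adjusted p = 4.86e-14). IKZF2 stood at 128, 19.9 and 110 CPM in control Tregs and at 58.5, 265 and 27.1 CPM in asthma Tregs, against 9.42 to 44.9 CPM in the reference. In control replicate 2 the order was the opposite, Tregs being below their reference at 38.6 CPM. IKZF2 was called with edgeR (1.85 ± 0.54, SE, adjusted p = 0.0257) but not with DESeq2 (adjusted p = 0.243).

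In the interleukin-2 receptor pathway, 7 of 12 genes in the files were tested, and IL2RA was the only one called. The median log2 fold change was -0.017. The beta chain IL2RB was measured at 0.54 (edgeR adjusted p = 0.559) and the kinase JAK1 at -0.017 (adjusted p = 0.996). IL2 itself and the feedback inhibitor SOCS3 had no UMI in any Treg, which allows up to 3 of the 231429 Treg UMIs.

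Among inhibitory receptors and ectoenzymes, 6 genes were tested, 2 were called higher (CTLA4 and TIGIT) and 1 lower (CD96), at a median of 0.45. TIGIT, an inhibitory receptor that shares its ligand with CD96, was detected in 48 of 56 Tregs and in 28.3% of FOXP3-negative T cells. Its level was 1385, 1330 and 735 CPM in Tregs of control replicates 1, 2 and 3 and 585, 2364 and 1110 CPM in asthma replicates 8, 10 and 11. The reference lay at 86.2 to 190 CPM, so that the cell kinds did not overlap in the 6 libraries (log2 fold change 3.35 ± 0.22, SE, edgeR adjusted p = 2.57e-48). CD96 had no UMI in Tregs. PDCD1, the checkpoint receptor PD-1, was at 0.84 (adjusted p = 0.591) and was not called. The ectoenzyme ENTPD1 (CD39) had 8 UMIs in 7 Tregs, and NT5E (CD73) had none.

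Costimulatory receptors held the largest number of calls of the receptor lists. Of 11 tested, 5 were called higher and none lower, with a median of 1.11. TNFRSF18 (GITR) was detected in 67.9% of Tregs and 7.73% of FOXP3-negative T cells. It was measured at 767, 675 and 625 CPM in control Tregs and at 234, 3197 and 460 CPM in asthma Tregs, against 18.7 to 57.4 CPM in the reference. Every library showed the difference, which was widest in asthma replicate 10 (log2 fold change 4.57 ± 0.26, SE, edgeR adjusted p = 9.43e-63; 0.0753 with robust estimation). TNFRSF4 (OX40) was measured at 661, 318 and 221 CPM in control Tregs, at 0, 1419 and 162 CPM in asthma Tregs, and at 10.7 to 33.7 CPM in the reference. Here too only asthma replicate 8 had no UMI (4.65 ± 0.32, SE, edgeR adjusted p = 1.54e-44). All 27 Tregs with a TNFRSF4 UMI also had a TNFRSF18 UMI. ICOS, a receptor of the CD28 family, was higher by 1.89 ± 0.43 (adjusted p = 0.000934), with the opposite order in asthma replicate 11. SLAMF1 was higher by 1.33 ± 0.34 and CD27 by 1.11 ± 0.27. CD27 was below its reference in Tregs of control replicate 3, outside the fit (184 and 215 CPM). With all 6 libraries CD27 was not called (0.76, edgeR adjusted p = 0.0587). TNFRSF1B, the second receptor for TNF, was detected in 82.1% of Tregs and 55.2% of the reference but was not called (0.76 ± 0.25, SE, edgeR adjusted p = 0.0703), nor was CD28 (1.13, adjusted p = 0.263).

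**Figure D3:**
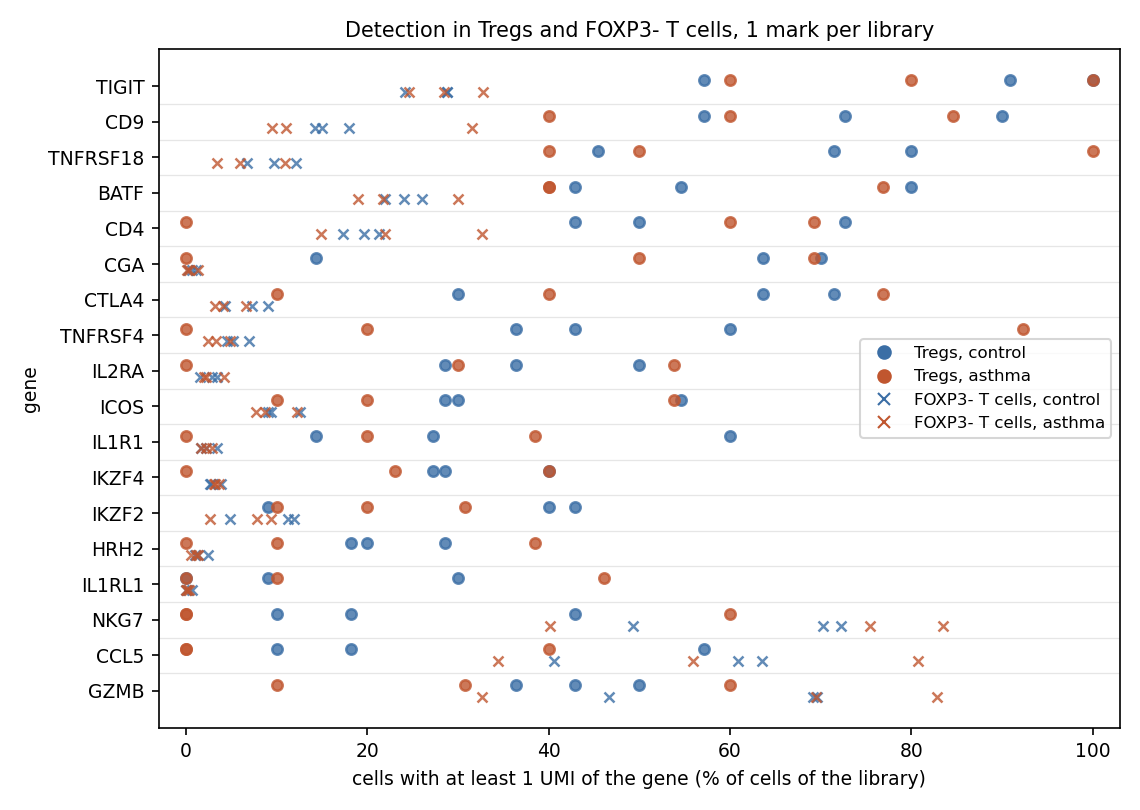
Percent of cells with at least 1 UMI of 18 genes, per library, in Tregs (dots) and FOXP3-negative T cells (crosses). All dots of TIGIT and TNFRSF18 lie to the right of all crosses, while most dots of NKG7 and CCL5 lie to their left.

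Detection shares depend on depth, so each cell was also thinned to 1500 UMIs, which kept 54 Tregs and 2905 FOXP3-negative T cells. TIGIT was then detected in 77.8% and 15.7% of them, TNFRSF18 in 50.0% and 3.89%, TNFRSF4 in 38.9% and 1.96%, CTLA4 in 25.9% and 3.06%, and IL2RA in 18.5% and 1.07%. The shares kept their order at equal depth. The 16721 cells with fewer than 2 CD3 genes (median 5006 UMIs) had a CTLA4 UMI in 0.0957% and a TNFRSF4 UMI in 1.02% of cells. TNFRSF18 was found in 1.30%, IL2RA in 1.44% and TIGIT in 5.41% of them. Some of these cells may express the genes themselves, and the part of free RNA in these shares was not tested.

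Receptors for alarm signals and type 2 cytokines formed a list of which 5 genes were tested, 3 were called higher and 1 lower, at a median of 1.75. IL1RL1, the interleukin-33 receptor ST2, had the largest fitted fold change of the genes higher in all 4 libraries. It had 23 UMIs in 11 Tregs and 10 UMIs in 7 of the 3042 FOXP3-negative T cells. Its level was 171, 39.7 and 0 CPM in control Tregs and 0, 227 and 27.1 CPM in asthma Tregs, and at most 2.22 CPM in the reference. The CPM ratio over all 6 libraries was 117 (95% counting interval 53.7 to 276) and the log2 fold change was 6.17 ± 0.67 (SE, edgeR adjusted p = 2.41e-17). Control replicate 3 and asthma replicate 8, which held 7 and 5 Tregs, gave no IL1RL1 UMI. IL1R1, the receptor for interleukin-1, was higher by 3.65 ± 0.59 (SE, edgeR adjusted p = 9.57e-08) and was detected in 17 of 56 Tregs and 70 of 3042 FOXP3-negative T cells. Other lung cells carried it too, with a UMI in 17.1% of the 16721 cells with fewer than 2 CD3 genes. IL18R1, a chain of the interleukin-18 receptor, was higher by 1.75 ± 0.55 (adjusted p = 0.0452). IL7R was lower by 0.96 on the log2 scale (adjusted p = 0.0417; 0.733 with DESeq2), though its CPM in control replicate 2 was slightly above the reference (198.5 and 190.1 CPM). The receptors IL17RB and PTGDR2, found on type 2 helper cells, had no UMI in Tregs.

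Transcription factors moved both ways. Of 26 Treg-associated factors tested, 3 were called higher and 3 lower, and the median was -0.094. BATF, a factor of the AP-1 family, was measured at 533, 377 and 808 CPM in control Tregs and at 117, 813 and 190 CPM in asthma Tregs. The reference lay at 59.5 to 132 CPM, and Tregs were above it in every library (log2 fold change 1.99 ± 0.28, SE, edgeR adjusted p = 2.70e-10). IKZF4 (Eos), a partner of FOXP3, was higher by 3.05 ± 0.61 (adjusted p = 6.35e-05). ID2, KLF6 and NR4A1 were called lower with edgeR, by 0.87, 0.96 and 1.22 on the log2 scale, and none of the 3 with DESeq2 (adjusted p = 0.0576, 0.185 and 0.288). Outside the fit, ID2 was above its reference in Tregs of control replicate 3 (1470 and 1282 CPM) and asthma replicate 8 (1814 and 1619 CPM).

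Of 9 lineage factors of helper T cells tested, GATA3, the factor of type 2 helper cells that is also found in tissue Tregs, was the only one called higher. GATA3 was measured at 277, 337 and 73.5 CPM in control Tregs and at 117, 227 and 271 CPM in asthma Tregs, against 59.5 to 160 CPM in the reference. It was above the reference of its own library in all libraries except control replicate 3 (1.31 ± 0.30, SE, edgeR adjusted p = 0.00105). TBX21 and EOMES, factors of type 1 and cytotoxic cells, were called lower with edgeR but not with DESeq2 (adjusted p = 0.195 and 0.121). The helper cytokines IL4, IL5, IL13, IL17F, IL22 and IL2 had no UMI in Tregs. All 8 IL17A UMIs came from 1 cell of control replicate 2.

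Mediators of suppression contained no gene called higher. Of 7 genes tested none was called higher and 4 were called lower, at a median of -0.78. The 4 were TGFB1, which encodes a suppressive cytokine, and the granule genes GZMA, GZMB and PRF1. Tregs of control replicate 2 (536 and 507 CPM) and of asthma replicate 8, outside the fit (761 and 610 CPM), were above their reference in TGFB1. TGFB1 was detected in 69.6% of Tregs and 81.5% of FOXP3-negative T cells and was lower by 0.78 on the log2 scale (edgeR adjusted p = 0.0432; 0.674 with DESeq2). IL10, a suppressive cytokine, had 8 UMIs in 4 Tregs of control replicate 2 and asthma replicate 10, too few for the test. The growth factor AREG and the TGF-beta docking protein LRRC32 had none.

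Of 37 genes of a reported human Treg signature in the files, 25 were tested, 8 were called higher and 1 lower, with a median of 1.11. Besides genes named above, these included the lysosomal phosphatase ACP5 (2.49 ± 0.67) and the mitosis regulator PTTG1 (1.66 ± 0.28). PTTG1 was below its reference in Tregs of control replicate 3, outside the fit (36.7 and 91.0 CPM, from 1 UMI). ACP5 was called in 4 of 7 settings and not with DESeq2 (adjusted p = 0.112), and in control replicate 1 it had no UMI in Tregs and was at 7.90 CPM in the reference. CD74 was the gene called lower. The lists share members, so their counts are not independent of each other.

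CGA was the gene with the smallest p and had the second largest fitted fold change of those higher in all 4 libraries. It encodes the alpha subunit shared by the glycoprotein hormones and is known from the pituitary and placenta. CGA was measured at 1364, 1866 and 36.7 CPM in Tregs of control replicates 1, 2 and 3 and at 0, 1343 and 1678 CPM in asthma replicates 8, 10 and 11. In FOXP3-negative T cells it lay between 8.43 and 44.9 CPM. High levels were thus found in the 4 libraries with at least 10 Tregs, in both groups, and control replicate 3 and asthma replicate 8 stood apart with 1 and 0 UMIs. The log2 fold change was 5.63 ± 0.25 (SE, edgeR adjusted p = 5.54e-107), and CGA was called in 12 of 12 settings in which it was tested, at 4.86 with all 6 libraries. No single cell decided it, as the cell with the most CGA held 31 of 292 Treg UMIs (10.6%).

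The CGA transcripts were concentrated in few cells. Of all quality-controlled cells, 93 had a CGA UMI, and 29 of them (31.2%) were Tregs, 51.8% of the 56. The largest class, 35 cells with 264 UMIs (37.6% of the positive cells), lay among the 5569 other cells with at least 2 CD3 genes, 0.629% of them, and 20 of the 35 had CD8A and 14 had FOXP3. The 19 positive FOXP3-negative T cells were 0.625% of their kind, and cells with fewer than 2 CD3 genes were positive in 0.0598% (10 of 16721, with 11 UMIs in all). All 29 CGA-positive Tregs had a TIGIT UMI, 26 had TNFRSF4 or TNFRSF18, and 25 had CTLA4, IL2RA or IKZF2. Of the 19 CGA-positive FOXP3-negative T cells, 17 had TIGIT and 12 had TNFRSF4 or TNFRSF18. CGA was detected in 26 of 38 Tregs with TNFRSF4 or TNFRSF18 and in 3 of 18 Tregs without them. IL1RL1 lay within the same cells: all 11 positive Tregs had TNFRSF4 or TNFRSF18, and 10 of 11 had CGA.

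The remaining genes of the 10 with the largest increases were AGR3, HRH2 and CD101. AGR3, a member of the protein disulphide isomerase family, had 18 UMIs in 8 Tregs (4.98 ± 0.67, SE, edgeR adjusted p = 3.54e-11). HRH2, the histamine H2 receptor, was measured at 64.0, 59.5 and 73.5 CPM in control Tregs and at 0, 151 and 108 CPM in asthma Tregs, and at 1.69 to 7.53 CPM in the reference (4.53 ± 0.64, SE, adjusted p = 5.87e-10). Tregs were above the reference in every library but asthma replicate 8. CD101, an inhibitory surface protein, had 13 UMIs in 10 Tregs (3.52 ± 0.71, SE, adjusted p = 9.33e-05). The tetraspanin CD9, chosen after its values were seen, was detected in 40 of 56 Tregs and 488 of 3042 FOXP3-negative T cells and was higher by 2.41 ± 0.27 (adjusted p = 8.51e-16). CD9 was also found in 50.9% of cells with fewer than 2 CD3 genes.

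**Figure D4:**
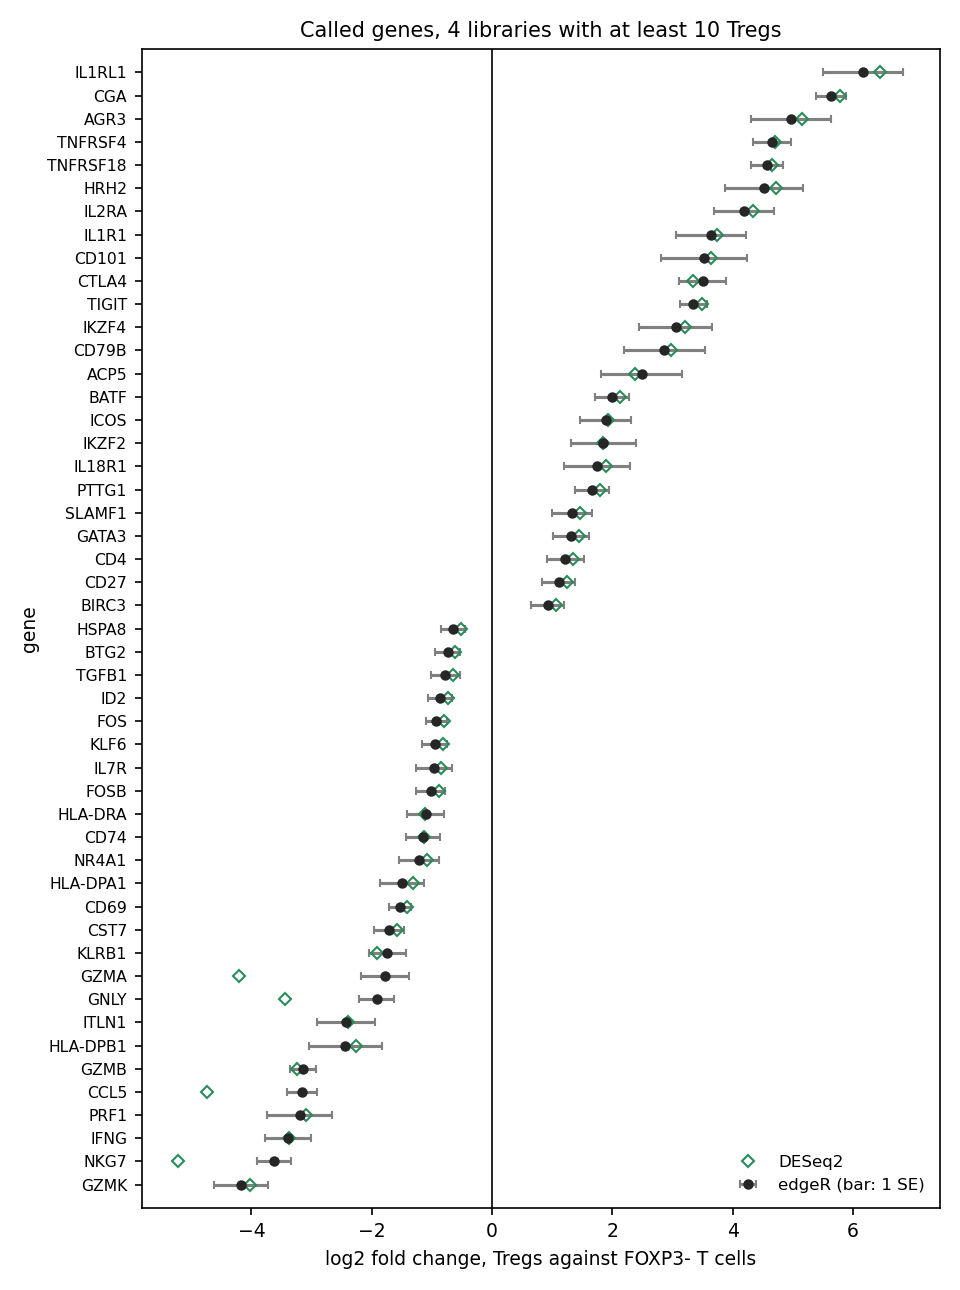
Fitted log2 fold changes, Tregs against FOXP3-negative T cells in 4 libraries, for called genes of the rule and lists with more than 3 UMIs on both sides (SFTPC left out). Points show edgeR ± SE and diamonds DESeq2, with CGA and IL1RL1 at the upper end and cytotoxic genes at the lower end.

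Cytotoxic genes were lower in Tregs of the 4 libraries. All 12 tested genes of natural killer and cytotoxic cells were called lower with edgeR, at a median log2 fold change of -3.18, beside 1.95% of all genes. NKG7, a granule membrane protein, was measured at 42.6, 536 and 625 CPM in control Tregs and at 1112, 0 and 0 CPM in asthma Tregs. In FOXP3-negative T cells it was 788, 1357 and 1140 CPM in controls and 2016, 1854 and 521 CPM in asthma, above the Tregs of its library in every case. It fell by 3.62 on the log2 scale (edgeR adjusted p = 1.40e-34; 0.0409 with DESeq2). GZMB (granzyme B) fell by 3.15 (adjusted p = 3.07e-44), GZMK (granzyme K) by 4.17 (adjusted p = 1.70e-17) and the receptor chain KLRD1 by 4.34 (adjusted p = 4.49e-15) on that scale. The chemokine CCL5 fell by 3.16 (edgeR adjusted p = 4.44e-33). DESeq2 did not call 6 of the 12, namely CCL5 (adjusted p = 0.153), CTSW (0.0673), KLRG1 (0.103), GNLY (0.390), GZMA (0.589) and KLRB1 (0.933). Robust estimation also left 6 of the 12 without a call, namely NKG7 (adjusted p = 0.471), GZMB (0.421), CCL5 (0.533), GNLY (0.815), GZMA (0.814) and KLRB1 (0.772). With all 6 libraries the log2 fold change was -2.64 for NKG7, -2.34 for GZMB, -2.31 for CCL5 and -2.99 for KLRD1, each nearer to 0 and still called. GNLY was above its reference in Tregs of control replicates 2 (1627 and 739 CPM) and 3 (661 and 467 CPM). GZMA was above its reference in control replicate 2 (318 and 196 CPM), where all 16 GZMA UMIs of Tregs lay in 1 cell. KLRB1 too was above its reference in control replicate 2 (238 and 154 CPM). Of 23 GZMK UMIs, 14 and 4 lay in control replicate 3 and asthma replicate 8, outside the fit. Tregs of control replicate 3 were above their reference (514 and 185 CPM), and with all 6 libraries the GZMK log2 fold change was -2.04. IFNG, the type 1 cytokine, fell by 3.40 (adjusted p = 8.51e-16) and was called in 11 of 12 settings.

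The reference was itself mixed, with CD4 in 20.9% and NKG7 in 66.1% of FOXP3-negative T cells. When only cells with a CD4 UMI were compared on both sides, a choice made after the data were seen, the 5 libraries with at least 3 such Tregs entered, which left out asthma replicate 8 and kept 3 to 9 Tregs per library. TIGIT (log2 fold change 2.78), TNFRSF4 (3.65), TNFRSF18 (3.35), IL2RA (3.66), CTLA4 (2.82) and CGA (4.82) were still called higher, as were IL1R1, IKZF4, BATF and CD27. SLAMF1 (0.93, adjusted p = 0.349), PTTG1 (0.80, 0.431), GATA3 (1.22, 0.0992), ICOS (1.62, 0.0669), BIRC3 (1.11, 0.130) and IL18R1 (1.56, 0.216) were not. Of the named genes tested in both directions, 14 kept their call and 27 lost it. In the 4 libraries of the whole comparison, 8 kept their call, namely TIGIT, TNFRSF4, TNFRSF18, IL2RA, CGA, IL1R1, IL1RL1 and NKG7, and 34 lost it, among them CTLA4 (2.83, adjusted p = 0.183). These fits rest on fewer cells and fewer genes, and the part of the CD4 selection in the lost calls cannot be told apart from that. In the fit on 5 libraries, NKG7 and GZMB were still called lower (edgeR adjusted p = 0.000229 and 0.00807). GZMK (-2.29, adjusted p = 0.169) and CCL5 (-2.04, 0.238) were not. In the same 4 libraries GZMB lost its call (-2.65, adjusted p = 0.180). CD4 was called higher in the whole comparison (1.22 ± 0.31, adjusted p = 0.00415) and was at -0.023 between the CD4-positive cells, where detection was fixed by the selection.

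Cytotoxic transcripts were not spread evenly over the Tregs. At least 2 of NKG7, GZMB and CCL5 were detected in 9 of 56 cells, 1 in control replicate 1, 2 in control replicate 2, 3 in control replicate 3 and 3 in asthma replicate 8. None was in asthma replicates 10 and 11. Of these 9 cells, 2 had CTLA4, IL2RA or IKZF2 and 1 had CD4, compared with 39 and 30 of the other 47. The summed cytotoxic list was 1023, 5676 and 6871 CPM in control Tregs and 7430, 511 and 487 CPM in asthma Tregs, with GZMB its most abundant gene, against 4305 to 14920 CPM in the reference. None of its genes was at 0 UMIs over all Tregs. The part of these 9 cells in the results was not tested, and control replicate 3 and asthma replicate 8, with 6 of them, were outside the fits on 4 libraries.

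The 10 genes with the largest fitted decreases among those lower in all 4 libraries had no UMI in the 44 Tregs tested, and so the fitted values are no measure of size. They passed the expression filter through the reference alone. At 0 UMIs in Tregs they could only come out as lower, so the same direction in all 4 libraries adds nothing. Against a floor of 3 counts over the group, DPP4 (the surface peptidase CD26) was at least 3.41-fold lower, KLRK1 (the receptor NKG2D) at least 3.27-fold, ERN1 (a sensor of endoplasmic reticulum stress) at least 3.15-fold, the cytokine gene IL18 at least 3.03-fold and EOMES at least 2.95-fold. For SAMD3, CLEC12A, CD96, PLEKHO1 and DGKD the bounds were 2.67-fold, 2.44-fold, 2.41-fold, 2.36-fold and 2.08-fold. None of the 10 was called with DESeq2, whose adjusted p ranged from 0.0724 to 0.426. In the libraries outside the fit, Tregs were above their reference for KLRK1 (110 and 79.5 CPM), IL18 (73.5 and 47.9 CPM) and DPP4 (36.7 and 30.3 CPM) in control replicate 3, and for CLEC12A (176 and 101 CPM) and SAMD3 (117 and 67.4 CPM) in asthma replicate 8, each on 1 to 3 UMIs. With all 6 libraries CLEC12A was not called (adjusted p = 0.159).

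Of 8 naive and resting genes tested, CD27 was called higher and IL7R and TCF7 lower, at a median of -0.56, while the summed list was 1785 CPM in Tregs and 1461 CPM in the reference. TCF7, a factor of naive and memory cells, fell by 3.40 on the log2 scale (edgeR adjusted p = 0.000200; 0.124 with DESeq2), but Tregs of control replicate 3, outside the fit, were above their reference (221 and 149 CPM). CCR7, the lymph node homing receptor, had no UMI in Tregs and one in only 16 of 3042 FOXP3-negative T cells, too few for a contrast. CD69, a marker of recent activation and tissue residency, fell by 1.53 (adjusted p = 1.73e-13) and was called in 11 of 12 settings, though Tregs of asthma replicate 8, outside the fit, were above their reference (2691 and 1682 CPM). Of 26 immediate-early and stress genes tested, 6 were called lower and none higher, at a median of -0.58. FOS was among them, at 0.93 below on the log2 scale (adjusted p = 9.20e-06; 0.309 with DESeq2). The summed list was higher in Tregs of asthma replicate 8, outside the fit (20180 and 13990 CPM), and lower in the other 5 libraries. In asthma replicate 8 FOS, FOSB, BTG2, HSPA8 and NR4A1 were above their reference, and FOS was also above it in control replicate 2 (3394 and 3195 CPM) and HSPA8 in control replicate 3 (1617 and 1396 CPM) and asthma replicate 11 (1056 and 1023 CPM). Of the 6, DESeq2 called only CD69, and its adjusted p was 0.213 for FOSB, 0.288 for NR4A1, 0.503 for BTG2 and 0.553 for HSPA8. Of 12 NF-kB feedback genes, BIRC3 was called higher (0.92 ± 0.27, adjusted p = 0.0240) and none lower, at a median of -0.25.

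All 4 tested genes of MHC class II presentation (CD74, HLA-DRA, HLA-DPA1 and HLA-DPB1) were called lower with edgeR, at a median of -1.33, and none with DESeq2 (adjusted p = 0.559 to 0.934). CD74 and HLA-DRA were not called with robust estimation either (adjusted p = 0.813 and 0.888). Tregs of control replicate 1 were above their reference in HLA-DRA (341 and 99.5 CPM, with all 16 UMIs in 1 cell), CD74 (469 and 184 CPM) and HLA-DPB1 (64.0 and 43.2 CPM). HLA-DRA turned to 0.19 against FOXP3-negative T cells of matched depth. HLA-DRA was detected in nearly the same share of both cell kinds, 28.6% of Tregs and 29.1% of FOXP3-negative T cells. None of 7 chemokine receptors, 11 adhesion molecules, 17 interferon-stimulated genes and 6 cell cycle genes tested was called, with medians of 0.71, -0.19, 0.018 and -0.20. For the cell cycle genes the rule limits the test, since it removed cells with MKI67 or TOP2A from both sides. Of 7 TGF-beta pathway genes tested, TGFB1 was called lower (adjusted p = 0.674 with DESeq2), and of 10 T cell receptor signalling genes tested, CD4 was called higher. The median was -0.77 in the first list and -0.39 in the second.

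Markers of other lung cells were low in most Tregs. The rule had removed cells with C1QA, CSF3R or MS4A1. Low levels of the other macrophage, neutrophil and B cell markers are therefore no separate check of the cells. B cell markers gave 13 UMIs, all of CD79B, which was called higher (2.87 ± 0.67, adjusted p = 0.00144), while CD79A was at 0 and MS4A1 was at 0 by the rule. Macrophage markers gave 68 UMIs in control replicate 1 and at most 9 in any other library, most of them APOE, with C1QA at 0 by the rule. Epithelial markers gave 1876 UMIs in control replicate 1 and 0 to 25 in the others, and SFTPC, the surfactant gene of alveolar type 2 cells, was the most abundant. A single cell of control replicate 1 held 15801 of the 46915 Treg UMIs of that library and 1856 of the 1903 SFTPC UMIs (97.5%). This cell, which also held all 22 SFTPD UMIs of Tregs, stayed in the main fits. Every Treg CPM of control replicate 1 counts its UMIs in the total, and its own part in the results was not tested. SFTPC was called lower in the fit (-1.71, adjusted p = 2.10e-11; 0.957 with DESeq2 and 0.953 with robust estimation) and turned to 2.23 against cells of matched depth, so no direction is given for it. Control replicate 1 was not the only library with such a cell. AGER, a gene of alveolar type 1 cells outside the list, had 80 of its 86 Treg UMIs in 1 cell of asthma replicate 11, with 6684 UMIs. CYP4B1, also outside it, had all 37 Treg UMIs in 1 cell of that library. Plasma cell, neutrophil, mesothelial and stromal markers gave at most 9 UMIs in any library, with MSLN and COL1A1 at 0 and CSF3R at 0 by the rule. Genes of these lists called lower with edgeR were JCHAIN, ITLN1, DCN and A2M. Detection in Tregs and in the reference was 3.57% and 2.63% for JCHAIN, 14.3% and 13.6% for ITLN1, and 5.36% and 4.83% for DCN. For these genes the share of positive cells was thus not lower in Tregs, while for A2M it was (1.79% and 4.47%). JCHAIN was above its reference in Tregs of asthma replicate 11 (27.1 and 15.3 CPM, from 1 UMI). So were A2M in control replicate 1 (21.3 and 2.63 CPM) and DCN in asthma replicate 10 (18.9 and 18.5 CPM), each from 1 UMI. DESeq2 called JCHAIN (adjusted p = 0.0199) but not ITLN1 (0.0904), DCN (0.540) or A2M (0.829).

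Asthma and control Tregs were then compared, to see whether the allergen regimen changed these cells. The fit used the same 4 libraries, 2 per group, and 633 genes had enough UMIs. None was called higher or lower with edgeR, a background of 0%, while 36 genes (5.69%) had an unadjusted p under 0.05. DESeq2 called 1 gene, CCL5, lower (adjusted p = 0.0369). CCL5 was at 213 and 814 CPM in the control Tregs of the fit, from 1 and 2 positive cells, and at 0 in the asthma Tregs of the fit. Asthma replicate 8, outside the fit, had the highest CCL5 level of the 6 libraries (1521 CPM from 26 UMIs, against 1286 CPM in control replicate 3), so the groups overlapped over all 6. In 111 genes (17.5%) both asthma libraries lay above both control libraries, and in 97 (15.3%) below them.

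Among the genes whose groups did not overlap in the 4 libraries, the 5 with the smallest p in each direction are given as values only. TBC1D10C, a regulator of T cell signalling, was measured at 213, 238 and 221 CPM in control Tregs and at 410, 586 and 568 CPM in asthma Tregs, and the groups did not overlap in all 6 libraries either (1.33 ± 0.37, SE, edgeR adjusted p = 0.726). The glycosylation gene DDOST was at 1.73 ± 0.50, the scaffold gene IQGAP1 at 1.50 ± 0.46, the signalling adaptor LAT at 1.26 ± 0.39 and the filament gene VIM at 0.95 ± 0.29, with the same adjusted p. Over all 6 libraries the groups overlapped for DDOST, LAT and VIM, and asthma replicate 8 had the lowest VIM level of all (1404 CPM). On the lower side, TYROBP, FCER1G, GZMB and CYBA stood at -3.54, -4.15, -3.23 and -1.24, and CCL5 had no UMI in either asthma library of the fit (adjusted p = 0.726 for all). Some of these control levels came from few cells. In control replicates 1 and 2, TYROBP was detected in 1 and 3 Tregs, and FCER1G and CCL5 each in 1 and 2. GZMB was detected in 5 and 4 and CYBA in 8 and 11. TYROBP and FCER1G encode signalling adaptors of killer and myeloid cells, and CYBA a subunit of the NADPH oxidase. GZMB was 320, 1588 and 2499 CPM in control Tregs and 3042, 94.6 and 108 CPM in asthma Tregs. Asthma replicate 8, which held too few Tregs for the fit, had the highest level, so that the groups overlapped over 6 libraries.

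The Treg genes themselves did not separate the groups. Over all 6 libraries, CTLA4 averaged 283 CPM in control and 334 CPM in asthma Tregs (two-sided exact permutation p = 0.9), IL2RA 126 and 189 CPM (p = 0.7), IKZF2 86.0 and 117 CPM (p = 0.8) and TNFRSF18 689 and 1297 CPM (p = 1.0, exact permutation). BATF averaged 573 and 373 CPM (exact permutation p = 0.6) and CGA 1089 and 1007 CPM (p = 0.7). After adjustment over the 16 genes compared in this way, every adjusted p was 1.0. In the fit CTLA4 was at 1.03 ± 0.92 (edgeR adjusted p = 0.940), and IL2RA and IKZF2 had too few UMIs to be tested. Marker detection varied within the asthma group: the 13 Tregs of asthma replicate 10 all had CTLA4, IL2RA or IKZF2, in asthma replicate 11 it was 5 of 10 and in asthma replicate 8 it was 2 of 5. None of the 5 Tregs of asthma replicate 8 had a UMI of IL2RA, TNFRSF4, CD4, CGA or IL1RL1.

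**Figure D5:**
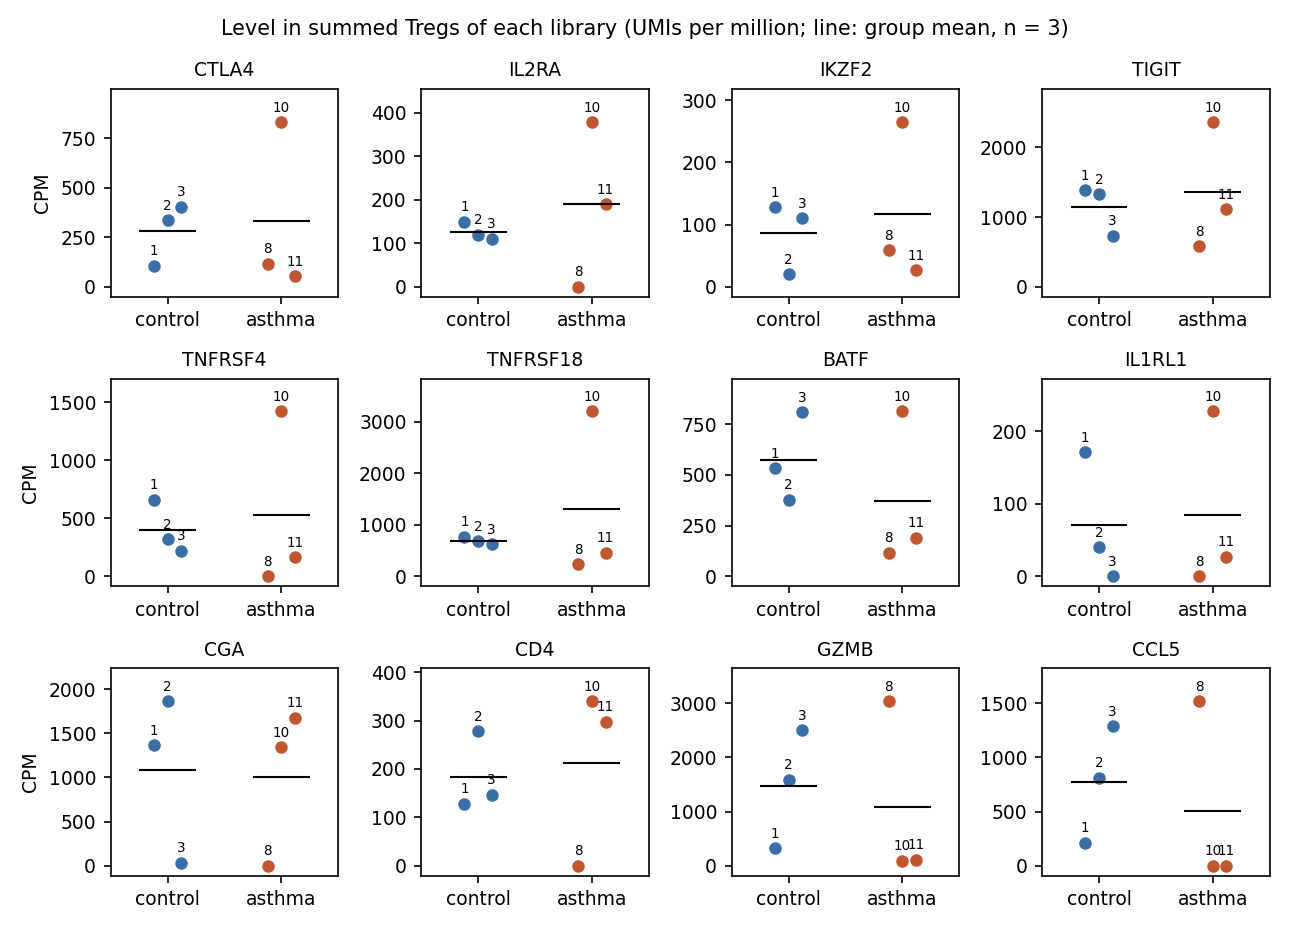
CPM of 12 genes in summed Tregs, 1 point per library and a line at each group mean. Asthma replicate 10 is the highest point for CTLA4, TIGIT and TNFRSF18, asthma replicate 8 is at 0 for several genes, and the groups overlap.

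Whether the difference between Tregs and FOXP3-negative T cells itself differed between asthma and control was tested as an interaction over 7863 genes. It was called for 26 genes (0.331%), 3 (0.0382%) higher and 23 (0.293%) lower in asthma, and 188 (2.39%) had an unadjusted p under 0.05. With DESeq2 it was called for 1 gene, the immunoglobulin gene IGKC (adjusted p = 1.07e-06), which is named after its values were seen. IGKC was at 490 and 199 CPM in control Tregs and 132 and 190 CPM in asthma Tregs of the fit, while FOXP3-negative T cells of the control libraries had 2609 and 10920 CPM and those of the asthma libraries 16.3 and 28.9 CPM, so the groups were farther apart in the reference than in Tregs. Robust estimation called 11 genes, IGKC not among them (adjusted p = 1.0). No Treg marker and no costimulatory receptor was among the 26. The named and listed genes called were the cytotoxic genes CCL5, GNLY, NKG7, GZMB, GZMA and KLRB1, the adaptor gene TYROBP, the macrophage marker APOE, and SFTPC. Their UMIs were concentrated in few cells, and 18.9% to 100% of a gene's Treg UMIs came from 1 cell. Several other called genes, given after their values were seen, also rested on 1 cell each. In control replicate 1, it held 100% of Treg UMIs for SFTPD, PGC and SLC34A2, 98.0% for GSTA5 and 96.8% for SFTA2. In asthma replicate 11, it held 100% for CYP4B1 and 93.0% for AGER, both called higher. For IGKC and RGS2 the largest share was 31.5% and 25.9%. The part of these cells in the 26 calls was not tested.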

How the data were processed

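Lung cells of 3 control and 3 asthma monkeys were profiled with 10x 3' v3 libraries, 1 per monkey. Cell Ranger and the macFas6 genome gave the deposited UMI counts, which are whole numbers per gene and cell barcode without any normalization. The sources name different versions (2.1.1 in the submitters' processing notes, cellranger-4.0.0 in the file headers, and another in the study's methods). Of 35133 barcodes, 25388 (3511 to 4719 per library) were kept as cells, having 501 to 4999 genes and a share of no more than 25% for 13 mitochondrial genes. Genes were kept apart by identifier. The Treg rule, the gene lists and the tests were chosen with earlier results of these data known.

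Counts were summed per library and cell kind and tested with edgeR 4.0.16 in R 4.3.3 (TMM scaling, filterByExpr, quasi-likelihood test, Benjamini-Hochberg adjustment), in libraries with at least 10 Tregs. The 11 genes of the rule were left out of the tests. DESeq2 1.42.0, Scrublet through scanpy 1.11.5, robust estimation of the spread in edgeR, thinning, matched depth and leaving out each library were alternatives. Scrublet's own threshold marked 0.0394% of cells and had not worked, so doublets were treated only in an alternative that removed the 1194 highest scores. Named genes were the 10 largest called changes in each direction that held in every library entered, list members, and, where none was called, the 5 smallest p on each side among genes whose groups did not overlap. Scripts were tested on simulated data. Of 341 list symbols, 310 were in the files. Levels of single genes rest on 17094 to 52870 Treg UMIs per library. Results on some genes are not reported here.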

Additional observations from a re-analysis of the deposited data

Results flagged for a closer look

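For 9 named or listed genes the difference between Tregs and FOXP3-negative T cells differed between asthma and control (edgeR interaction in 4 libraries, adjusted over 7863 genes). The adjusted p was 8.94e-25 for SFTPC, 4.50e-11 for CCL5, 1.58e-08 for GNLY, 2.98e-08 for NKG7, 1.48e-07 for GZMB, 0.000454 for APOE, 0.000721 for TYROBP, 0.00483 for GZMA and 0.00767 for KLRB1. In the 4 libraries of the fit, control and asthma Tregs held 1871 and 30 UMIs of SFTPC, 51 and 0 of CCL5, 85 and 1 of GNLY, 29 and 0 of NKG7, and 95 and 9 of GZMB. They held 59 and 6 of APOE, 41 and 3 of TYROBP, 16 and 0 of GZMA, and 19 and 6 of KLRB1. Asthma replicate 8, outside the fit, held 26 UMIs of CCL5, 19 of NKG7 and 52 of GZMB in its Tregs (1521, 1112 and 3042 CPM), the highest Treg levels of these 3 genes among the 6 libraries. Of all Treg UMIs, 1 cell held 97.5% for SFTPC, 100% for GZMA, 78.5% for APOE, 72.5% for GNLY, 47.5% for TYROBP, 40.0% for NKG7, 35.7% for CCL5, 33.0% for GZMB and 18.9% for KLRB1. With robust estimation of the spread CCL5 (adjusted p = 1.66e-10), NKG7 (6.95e-08), GZMB (0.0106) and TYROBP (0.000929) were still called, while GZMA (0.0507), KLRB1 (0.620) and SFTPC, GNLY and APOE (1.0 each) were not. DESeq2 called none of the 9 (adjusted p of 0.627 for CCL5 and 1.0 for the others).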

How the results depend on the processing

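The sign of the Treg share difference was not stable. As a share of CD8A-negative T cells it turned to 0.207 points with at least 2 FOXP3 UMIs, 0.0458 with at least 1 CD3 gene and 0.539 after thinning, was -1.78 (5.44% in control and 3.65% in asthma, exact permutation p = 0.4) among cells with a CD4 UMI, and ranged from -0.532 to 0.276 with 1 library left out. Of all quality-controlled cells it turned to 0.0220 and 0.0900 with the first and last of these, and ranged from -0.0608 to 0.0189. Against 73 genes called higher in Tregs, 44 were called with no filter on low counts, 12 of 948 tested with FOXP3-negative cells of matched depth, 18 of 2341 tested between CD4-positive cells (11 of 2755 in the same 4 libraries), and 38 (without asthma replicate 10) to 75 with 1 library left out. Against 126 lower, these were 351, 12, 10 (3 in the same 4 libraries) and 40 (without asthma replicate 10) to 204 (without control replicate 2), with 18 under DESeq2, 201 with doublets removed and 246 with all 6 libraries. For asthma against control Tregs, none was called in the fit, 5 higher and 25 lower with no filter, 1 lower with DESeq2, and 0 to 6 higher and 1 to 21 lower with 1 library left out, the most without control replicate 2. Each of these leaves 1 library in 1 group, which is assumed to vary like the other group. A Wilcoxon test across 44 cells called none, but cells are not replicates, so it bears on no difference between monkeys. The 26 interaction calls became 1 with DESeq2, 11 with robust estimation, 12 with doublets removed, 0 at matched depth, and 16 to 38 with 1 library left out. Single genes reversed were HLA-DRA (0.19) and SFTPC (2.23) at matched depth, CD4 (-0.023, and -0.031 in the same 4 libraries) between CD4-positive cells, and CTLA4 in asthma against control (from -1.94 without asthma replicate 10 to 1.97 without control replicate 2). Under the other settings, values of named genes in Tregs against FOXP3-negative T cells kept their call 497 times, lost it 218 times and reversed 4 times. The causes were not tested, apart from fewer genes or cells tested where stated. The uses of all 6 libraries, of CD4-positive cells and of robust estimation were chosen after seeing the data. At least 2 FOXP3 UMIs in the asthma comparison and CD4-positive cells at 10 per library were not run, as too few cells were left. No paired analysis was possible because control and asthma monkeys share no replicate numbers. With 56 Tregs, genes of few UMIs could not be tested.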
